A study of Arabidopsis thaliana with 12 samples.

Results

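ATG8D (AT2G05630) and ATG8F (AT4G16520) are 2 of the 9 ATG8 genes of Arabidopsis thaliana, and their transcripts were followed in roots of 12 samples, each on its own single-channel Affymetrix array. They were selected on the measured change with nitrate in these data: in an earlier look at a list of autophagy genes, ATG8F was called lower with nitrate in wild type and ATG8D in the mutant. Their responses to nitrate are therefore given as a description, with no test. Each gene is read by 1 probe set, its only one, out of 22746 tested, and together they are 2 of 13356 genes named on the array.

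The 4 groups, with 3 samples in each, were wild type (Col-0) given KCl, wild type given KNO3, the tga1/tga4 double mutant given KCl and that mutant given KNO3. The mutant carries lesions in TGA1 and TGA4, a pair of bZIP transcription factors that act in the root response to nitrate; the labels name no allele. In every group seedlings had grown for 14 days in hydroponic MS medium whose nitrogen came from 0.5 mM ammonium succinate and whose sugar was 3 mM sucrose, with 16 h of light and 8 h of dark at 22 °C. Salts were given at 5 mM for 2 h from the start of the light period, at an age of 15 days, and whole roots were harvested, so that fewer cells of a type and less RNA per cell cannot be told apart. The labels call the replicates biological and independent but do not say what separated them; a p-value here speaks only of the scatter among the 12 samples, part of which may be technical.

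ATG8 is a small ubiquitin-like protein that is attached to the lipid phosphatidylethanolamine on the growing autophagosome, the double membrane that encloses cell contents and carries them to the vacuole for breakdown. The protease ATG4 trims ATG8 to a terminal glycine, the activating enzyme ATG7 and the conjugating enzyme ATG3 pass it on, and a complex of ATG5, ATG12 and ATG16 directs it to the membrane, where it binds cargo receptors. The pathway is started by the ATG1 kinase complex and by a phosphatidylinositol 3-kinase complex. In plants it recycles nutrients, it is induced when nitrogen or carbon is short, and transcripts of many ATG genes rise in starvation.

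Values are the authors' log2 signals, for which a difference of 1 is a 2-fold change in signal. Sample medians lay between 2.21 and 2.41. The mean of ATG8D over all samples was 5.11, above 81.6% of the probe sets, and that of ATG8F was 6.80, above 94.0%. Signals of different probe sets are not on a common scale, so these means do not say which of the genes was the more abundant. The probe sets are annotated to 1 gene each, and cross-hybridisation between the related ATG8 transcripts was not tested. Deviations from the group means over the brighter probe sets were correlated between groups for samples of 1 number. For number 3 the correlations of all pairs of groups ran from 0.20 to 0.73. They ran from -0.03 to 0.53 for number 1 and from -0.14 to 0.64 for number 2. Values without the samples numbered 3 are given below. The labelled tissue was checked with the 3 root markers measured of 13 listed. PYK10, a beta-glucosidase of root ER bodies, had group means of 9.34 to 9.92, and the root hair expansins EXPA7 and EXPA18 had group means of 2.72 to 4.41 and 2.90 to 5.13. Of 11 leaf genes listed 2 were measured. The guard cell factor FAMA had group means of 0.75 to 0.78, below every sample median, while the Rubisco activase gene RCA had group means of 3.84 to 4.31.

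Several of these markers moved with the salt. EXPA7 and EXPA18 rose with nitrate in wild type by 1.69 ± 0.30 and 2.23 ± 0.34 (log2 change ± SE, limma adjusted p = 0.00547 and 0.00196). Of all probe sets 3.32% were called higher there. In the mutant their changes of 0.54 and 0.73 were not called. The mutant change minus the wild-type change, -1.15 and -1.50, was not called either (limma adjusted p = 0.9993 for each). A difference in response between genotypes is thus not shown for these markers. In the mutant KCl samples EXPA7 ran from 2.92 to 4.47 and EXPA18 from 3.09 to 4.72. The estimates of PYK10 were -0.59 and -0.46 in wild type and mutant and those of RCA -0.47 and -0.34, none of them called. The summed linear signal of the 3 root markers was 926 to 1045 in wild type under KCl and 658 to 790 under KNO3, and 919 to 1017 and 526 to 1107 in the mutant. That of the 2 leaf genes was 18.0 to 30.3 and 14.9 to 18.3 in wild type and 16.8 to 26.3 and 14.6 to 18.5 in the mutant. On the linear scale PYK10 made up most of the root sum and RCA most of the leaf sum. The root sum therefore does not show the rises of EXPA7 and EXPA18. The part of these shifts in the results for ATG8D and ATG8F was not tested.

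ATG8F was lower with nitrate in both genotypes. In wild type under KCl the samples numbered 1, 2 and 3 stood at 7.60, 7.07 and 6.84 (log2), and under KNO3 at 6.57, 6.51 and 6.03. In the mutant they stood at 7.35, 7.31 and 6.92 under KCl and at 6.55, 6.51 and 6.40 under KNO3. All 6 KCl samples, the lowest at 6.84, thus lay above all 6 KNO3 samples, the highest at 6.57, whatever the genotype. ATG8F was chosen for its decrease with nitrate, and the share of all probe sets with this separation was not counted. The group means were 7.19 ± 0.24 in the mutant under KCl, 7.17 ± 0.39 in wild type under KCl, 6.49 ± 0.08 in the mutant under KNO3 and 6.37 ± 0.29 in wild type under KNO3 (mean ± SD, n = 3). In this order the neighbours that share a salt overlapped, and the KCl groups did not overlap the KNO3 groups.

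The change of ATG8F with nitrate was -0.80 ± 0.21 in wild type (log2 change ± SE, 95% confidence interval -1.24 to -0.35), a signal 1.74-fold lower. In the mutant it was -0.70 ± 0.21 (-1.15 to -0.25), or 1.63-fold lower. A change further down than that of ATG8F was found for 2.87% of all probe sets in wild type and for 3.60% in the mutant. KNO3 samples lay wholly below KCl samples, as for ATG8F, in 11% of all probe sets in wild type and in 9.74% in the mutant.

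ATG8D stood differently. Its wild-type KCl samples numbered 1, 2 and 3 lay at 5.45, 4.87 and 5.21 (log2), and its wild-type KNO3 samples at 5.07, 5.00 and 5.02, inside the range of the KCl samples. In the mutant the KCl samples lay at 5.54, 5.38 and 5.33 and the KNO3 samples at 4.81, 4.57 and 5.04. All 3 KNO3 samples were thus below all 3 KCl samples, as in 9.74% of all probe sets in the mutant. ATG8D was chosen for its decrease with nitrate in the mutant. From highest to lowest the means were 5.42 ± 0.11 for the mutant under KCl, 5.18 ± 0.29 for wild type under KCl, 5.03 ± 0.04 for wild type under KNO3 and 4.81 ± 0.24 for the mutant under KNO3 (mean ± SD, n = 3). Each group overlapped its neighbour in this order. The mutant thus held both the highest and the lowest mean of ATG8D, with the wild-type groups between them.

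With nitrate ATG8D changed by -0.15 ± 0.16 in wild type (95% confidence interval -0.49 to 0.20) and by -0.61 ± 0.16 in the mutant (-0.96 to -0.26), the latter a signal 1.53-fold lower. Changes further down were found for 28.9% of probe sets in wild type and for 4.59% in the mutant. Of the 6 KCl samples 5 lay above all KNO3 samples; the exception was wild type KCl replicate 2, at 4.87. Without that sample the wild-type change was -0.30 and was the largest decrease among the omissions of 1 sample, while without wild type KCl replicate 1 it was -0.01.

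**Figure D1:**
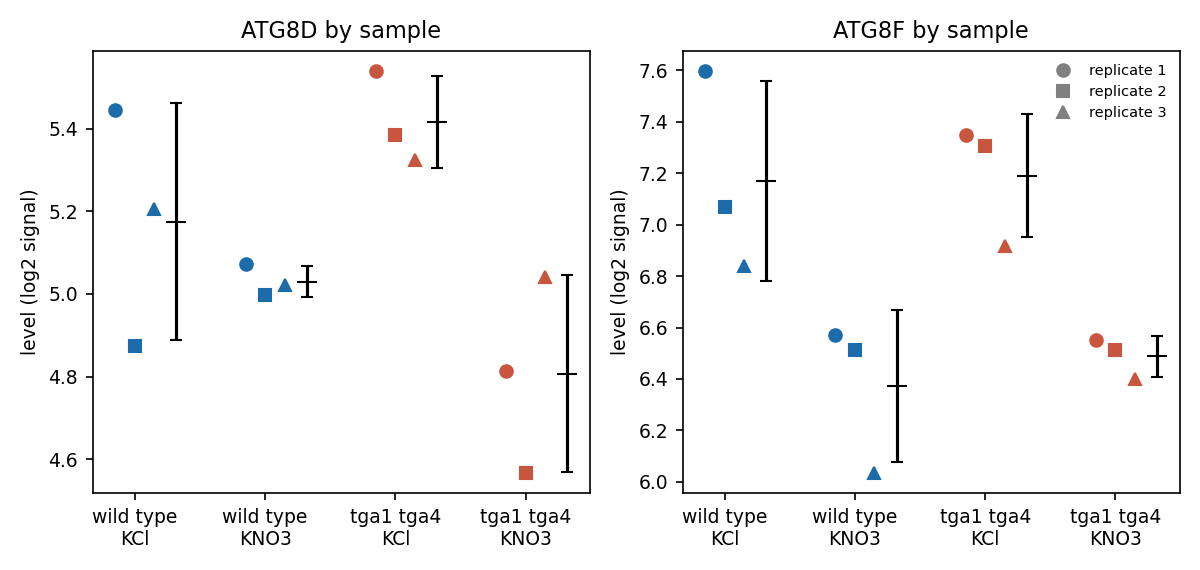
Level of ATG8D (left) and ATG8F (right) in each of the 12 samples, as log2 signal on the vertical axis, by genotype and salt; the shape gives the replicate number, and the black bar is the mean ± SD of 3 samples. For ATG8F all 6 KCl samples lie at 6.84 or higher and all 6 KNO3 samples at 6.57 or lower. For ATG8D the KNO3 samples lie below the KCl samples in the mutant, as in 9.74% of all probe sets. In wild type the salts overlap for ATG8D.

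The calls that chose the 2 genes lay close to the threshold. With limma and Benjamini-Hochberg adjustment over all probe sets, ATG8F in wild type had an adjusted p of 0.0444 and ATG8D in the mutant 0.0487, just inside 0.05, while ATG8F in the mutant, at 0.0814, and ATG8H in the mutant, at 0.143, were the nearest outside among the ATG8 genes. Leaving out 1 sample ended the call of ATG8F for 10 of the 12 samples, with adjusted p from 0.0519 to 0.171, and that of ATG8D for 9 of the 12, with adjusted p from 0.0615 to 0.169. ATG8F kept its call without wild type KCl replicate 3 or tga1 tga4 KCl replicate 3. ATG8D kept its call when 1 of these was omitted: wild type KCl replicate 1, wild type KCl replicate 2, or the mutant sample numbered 3 under KNO3. Both calls were also lost in a fit to the groups compared alone (adjusted p = 0.117 for ATG8F and 0.0899 for ATG8D) and without the 4 samples numbered 3 (0.0593 and 0.0962), and that of ATG8D with an intensity trend (0.0792). By the fit to all samples 1253 probe sets, or 5.51%, were called for nitrate in wild type and 1165, or 5.12%, in the mutant; those called lower made up 2.19% and 1.95% of all, and those called higher 3.32% and 3.17%.

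Whether tga1/tga4 roots differ from wild type in these genes was asked within each salt. These contrasts share group means with the responses that chose the genes, so they are not fully independent of that choice. Under KCl ATG8D was at 5.42 in the mutant and 5.18 in wild type, a difference of 0.24 ± 0.16 (log2, mutant minus wild type ± SE, 95% confidence interval -0.11 to 0.59, limma adjusted p = 0.9998). Under KNO3 the difference had the opposite sign, -0.22 ± 0.16 (-0.57 to 0.12, limma adjusted p = 0.9998). ATG8F differed by 0.02 ± 0.21 under KCl (-0.43 to 0.47) and by 0.12 ± 0.21 under KNO3 (-0.33 to 0.56), each with a limma adjusted p of 0.9998. The groups of both genes overlapped between genotypes under both salts. The intervals reach as far as 0.59 up and -0.57 down, so similar levels are not shown. These contrasts called 4 probe sets, 0.0176% of all, under KCl and 3, 0.0132%, under KNO3; at an unadjusted p under 0.05 they gave 4.7% and 1.75%, and neither ATG8D nor ATG8F was among these.

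Within a salt, samples of both genotypes that shared a number deviated together over the array, so the differences were also read number by number. They rest on the same values, so the choice of the genes bears on them as well. For ATG8D under KCl the mutant minus wild-type difference was 0.09, 0.51 and 0.12 for numbers 1, 2 and 3, positive each time, and under KNO3 it was -0.26, -0.43 and 0.02. For ATG8F it was -0.25, 0.24 and 0.08 under KCl and -0.02, 0.0032 and 0.36 under KNO3, with no common sign. A fixed block of salt and number, added after the data were seen, reduced the standard error of the ATG8D differences to 0.14 and left both uncalled (limma adjusted p = 0.65 under KCl and 0.999 under KNO3).

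The test of the response itself, the mutant change with nitrate minus the wild-type change, gave -0.46 ± 0.22 for ATG8D (95% confidence interval -0.95 to 0.03) and 0.09 ± 0.29 for ATG8F (-0.54 to 0.73), both with a limma adjusted p of 0.9993. This contrast is made of the responses that chose the genes, so it is not independent of that choice. A stronger decrease of ATG8D in the mutant was thus not shown, nor is an equal one: the interval reaches from a mutant response lower by 0.95 to one higher by 0.03. Over the array this contrast called 1 probe set, 0.0044% of all.

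The spread within groups differed between the 2 genes. For ATG8F the sample numbered 1 was the highest and the sample numbered 3 the lowest in all 4 groups. For ATG8D the sample numbered 1 was the highest in 3 of 4 groups and the sample numbered 2 the lowest in 3, while the sample numbered 3 was the lowest in 1. Taken as deviations from the group means, ATG8D and ATG8F had a Pearson r of 0.37 over 12 samples, with the same sign in 7 of them. The value is a description over samples that share groups and numbers. Without the 4 samples numbered 3, an alternative chosen after the data were seen, the change of ATG8F was -0.79 in both genotypes, and that of ATG8D was -0.12 in wild type and -0.77 in the mutant.

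**Figure D2:**
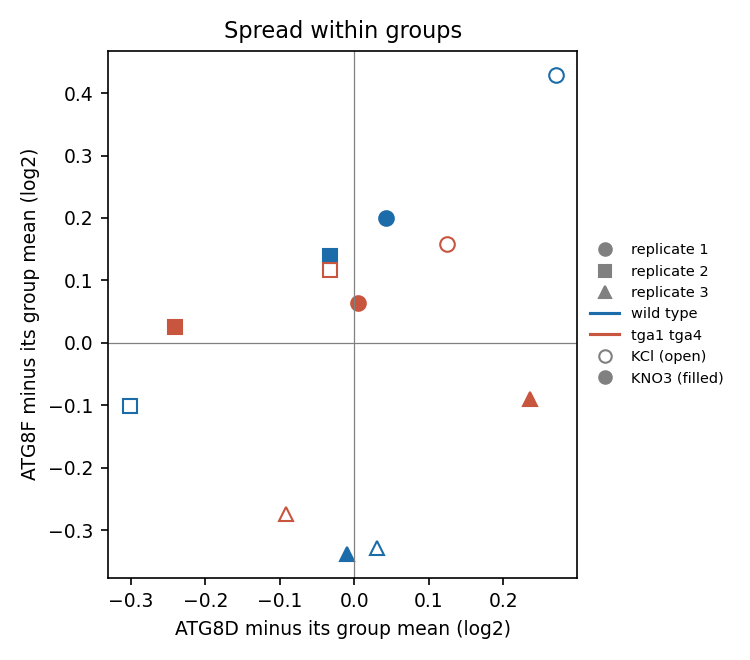
Deviation of each sample from its group mean for ATG8D (horizontal axis, log2) and ATG8F (vertical axis, log2); shapes give replicate numbers, colours genotypes, open points KCl and filled points KNO3. The 4 triangles, samples numbered 3, all lie below 0 for ATG8F, but on both sides of 0 for ATG8D.

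All 9 ATG8 genes were measured, which lets ATG8D and ATG8F be set beside their 7 relatives. A call among these would have made them members, so their counts are a description. For nitrate in wild type the limma fit called 0 of the 7 (1 had an unadjusted p under 0.05, against 16.5% of all probe sets), with a median change of -0.16 against -0.01 over all probe sets. In the mutant it called 0 of the 7 as well (2 had an unadjusted p under 0.05, against 15.6% of all), with a median of -0.29 against -0.01. The estimate was below 0 for 6 of the 7 in wild type and for 7 of the 7 in the mutant, and these counts were the same with quantile normalization and with median centring. Single samples weighed on them: the wild-type median was -0.03 when the KCl sample numbered 1 was omitted, with 4 of the 7 estimates below 0, and -0.03 when the KNO3 sample numbered 3 was omitted, with 5 of the 7 below 0. It was -0.28 when the KCl sample numbered 3 was omitted, with 6 of the 7 below 0, -0.09 with array weights, with 5 of the 7 below 0, and -0.10 with median centring and without the 4 samples numbered 3. In the mutant the median was -0.16 without tga1 tga4 KCl replicate 1, where 5 of the 7 were below 0 and 1 was called lower, -0.18 without tga1 tga4 KNO3 replicate 1 and -0.15 without tga1 tga4 KNO3 replicate 3.

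ATG8A, ATG8B, ATG8C, ATG8E and ATG8G encode forms that, like ATG8D and ATG8F, carry extra residues after the glycine and need trimming by ATG4. ATG8A changed by -0.16 ± 0.15 in wild type and by -0.38 ± 0.15 in the mutant (log2 change ± SE), where its KNO3 samples, at 6.73 to 6.79, lay below its KCl samples, at 7.08 to 7.25. In the mutant 9.74% of all probe sets were separated in this way, and the change of ATG8A was not called (limma adjusted p = 0.214). ATG8E had similar estimates in both genotypes, -0.38 and -0.40 (wild type first), with a standard error of 0.36. ATG8B stood at -0.20 and -0.29, again with a large error of 0.35. ATG8C, with changes of -0.10 and -0.04 and an error of 0.13, and ATG8G, at 0.17 and -0.02 with an error of 0.19, were close to 0. ATG8G was the only ATG8 gene with an estimate above 0 in wild type.

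ATG8H and ATG8I encode forms that end at the glycine and need no trimming. In the mutant ATG8H changed by -0.63 ± 0.22, about as far as ATG8D, and in wild type by -0.09 ± 0.22. Its KCl samples lay at 4.23, 4.19 and 4.02 in wild type and at 4.53, 5.04 and 5.33 in the mutant, so that the mutant samples were all above the wild-type samples. This genotype difference of 0.82 ± 0.22 was the largest among the 9 ATG8 genes under either salt, with an unadjusted p of 0.00277, but it did not pass over all probe sets (limma adjusted p = 0.689). Mutant samples lay wholly above wild-type samples under KCl for 3.81% of all probe sets. ATG8I changed by -0.45 ± 0.18 in wild type and by -0.16 ± 0.18 in the mutant, the reverse order of ATG8D and ATG8H, and neither change was called (limma adjusted p = 0.219 and 0.797). Under KNO3 its mutant samples lay above its wild-type samples, as for 3.21% of all probe sets, with a difference of 0.30 ± 0.18 (limma adjusted p = 0.9998). For the interaction limma called 0 of the 9 genes, and 0 had an unadjusted p under 0.05, against 3% of all probe sets.

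**Figure D3:**
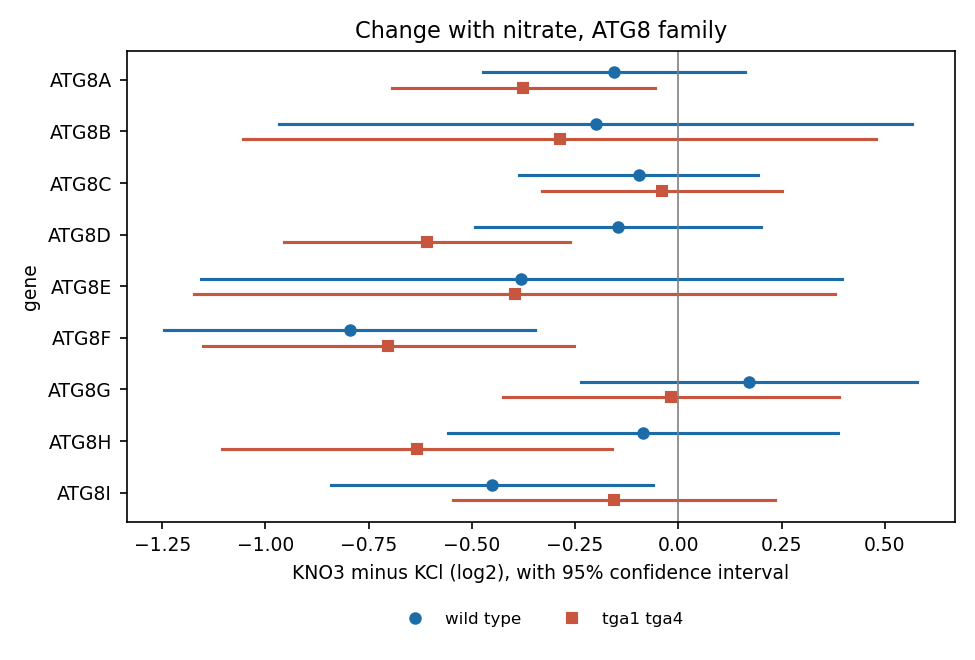
Change with nitrate of the 9 ATG8 genes, as KNO3 minus KCl on the log2 scale with its 95% confidence interval (3 samples per group), in wild type (circles) and tga1 tga4 (squares). ATG8F lies at -0.80 and -0.70, ATG8D at -0.15 and -0.61, and ATG8G in wild type, at 0.17, is the only estimate above 0.

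**Figure D4:**
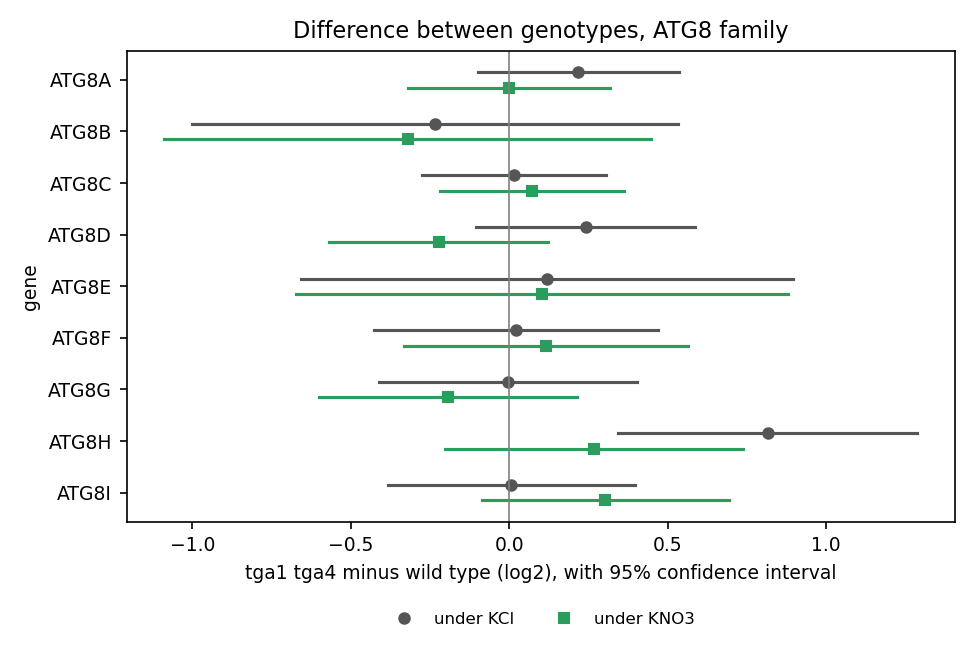
Difference between genotypes of the 9 ATG8 genes, as tga1 tga4 minus wild type on the log2 scale with its 95% confidence interval (3 samples per group), under KCl (circles) and KNO3 (squares). ATG8D has estimates on opposite sides of 0, at 0.24 and -0.22, and ATG8H under KCl, at 0.82, is the highest.

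Upstream and beside ATG8 in the pathway, 11 of 33 listed genes were measured under a name. In wild type 1 of the 11 fell, against 2.19% of all probe sets, 0 rose and 10 were not called; 3 had an unadjusted p under 0.05, against 16.5% of all. Their median change was -0.21, against -0.01 over all probe sets. In the mutant limma called 0 (4 had an unadjusted p under 0.05, against 15.6% of all), with a median of -0.23 against -0.01. Left-out samples moved these counts: in wild type 2 fell when either sample numbered 2 was omitted and 0 without wild type KNO3 replicate 1, and in the mutant 1 fell without wild type KNO3 replicate 2 or without the mutant KNO3 sample numbered 3. The mutant median ran from -0.40, without tga1 tga4 KCl replicate 2, to -0.15, without tga1 tga4 KCl replicate 3. The estimates of 9 of the 11 were below 0 in each genotype; with median centring this was 7 in wild type and 9 in the mutant.

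Of the ATG1 kinase complex list, 6 of 8 were measured, and this list held the gene that fell. AT3G61960 fell by 1.01 ± 0.20 in wild type (limma adjusted p = 0.0129), from 4.24 ± 0.09 under KCl to 3.23 ± 0.03 under KNO3 (log2 signal, mean ± SD, n = 3). As for 11% of all probe sets in wild type, its KNO3 samples lay wholly below its KCl samples. In the mutant it changed by -0.65 ± 0.20, from 4.07 ± 0.38 to 3.42 ± 0.39, with overlapping samples (limma adjusted p = 0.108). The interaction of 0.35 ± 0.29 was not called (limma adjusted p = 0.9993). The wild-type call ended without wild type KNO3 replicate 1 (adjusted p = 0.0505). AT2G37840 of the same list, represented by the brighter of 2 probe sets, changed by -0.78 ± 0.22 and -0.71 ± 0.22, estimates close to those of ATG8F, and was not called (limma adjusted p = 0.0703 and 0.105). ATG101 (AT5G66930), a subunit of the ATG1 complex, stood at -0.37 and -0.23, AT3G53930 at -0.26 and 0.06, AT3G18770 at -0.20 and -0.37, and AT1G49180 at -0.03 and -0.29. The last 2 of these lay between 0.80 and 1.64 in every sample, lower than any sample median, and whether they exceed background is unknown.

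Of the phosphatidylinositol 3-kinase complex list 2 of 6 were measured, and limma called 0 in either genotype (1 had an unadjusted p under 0.05 in wild type, against 16.5% of all probe sets, and 0 in the mutant, against 15.6%). The estimates of AT2G32760 were -0.48 in wild type and -0.21 in the mutant, and those of AT1G77890 -0.21 in both. Of the list of ATG8 processing and conjugation, which holds enzymes and complex subunits of those steps, 3 of 9 were measured and limma called 0. At an unadjusted p under 0.05 there were 0 in wild type and 1 in the mutant, against the same 16.5% and 15.6% of all. ATG3, the conjugating enzyme, stood at 0.02 ± 0.19 and -0.32 ± 0.19, AT3G59950 at -0.01 and -0.18, and AT5G50230 at 0.19 and 0.40. None of the 10 listed genes of membrane supply (ATG2, ATG9 and the ATG18 genes) and none of the 8 listed TGA factors other than the mutated pair was measured under a name. Between genotypes limma called 0 of the 11 measured genes under KCl and under KNO3, against 0.0176% and 0.0132% of all probe sets. Of the 11, 0 had an unadjusted p under 0.05, against 4.7% and 1.75% of all. These counts do not set the genes apart from the array.

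**Figure D5:**
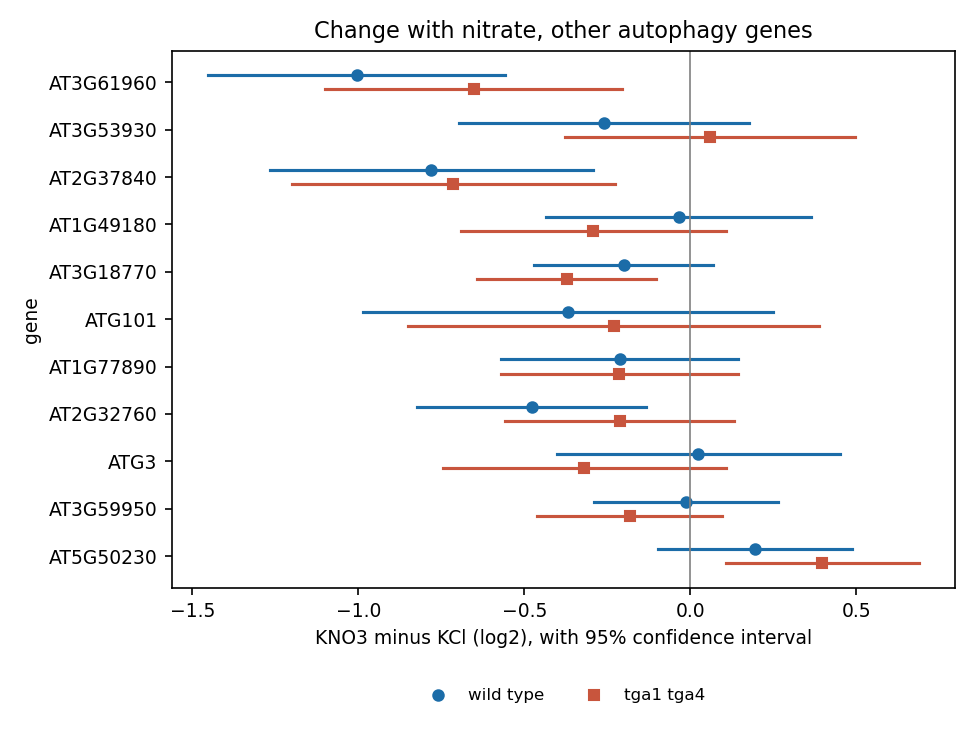
Change with nitrate of the 11 other autophagy genes measured under a name, as KNO3 minus KCl on the log2 scale with its 95% confidence interval (3 samples per group), in wild type (circles) and tga1 tga4 (squares). From the top, 6 genes are from the ATG1 kinase complex list, 2 from the phosphatidylinositol 3-kinase complex list and 3 from the list of ATG8 processing and conjugation; AT3G61960 in wild type, at -1.01, is the lowest.

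Around the pathway few genes were measured. Of 10 listed receptors and adaptors that bind ATG8 or act with it, 2 were measured, AT4G34660 at -0.02 and -0.05 and AT5G06830 at -0.14 and 0.02 in wild type and mutant. Of 6 listed genes of the TOR and SnRK1 kinase complexes, which repress and promote autophagy, RAPTOR1 stood at -0.0036 and 0.40 and RAPTOR2 at 0.02 and -0.09. RAPTOR proteins bring substrates to TOR. In these lists limma called 0 genes, against 5.51% of all probe sets in wild type and 5.12% in the mutant. At an unadjusted p under 0.05 there were 0, against 16.5% and 15.6% of all. With so few genes measured, a lack of response is not shown. Of 9 listed starvation-induced genes only AT3G15450 was measured, with changes of 0.77 ± 0.32 and 1.01 ± 0.32 (limma adjusted p = 0.25 and 0.116), of opposite sign to ATG8F. Of 6 listed vacuolar proteases 4 were measured. In wild type 1 of the 4 fell, against 2.19% of all probe sets, and 0 rose. It was beta-VPE, a vacuolar processing enzyme, which fell by 0.48 ± 0.12 (limma adjusted p = 0.0449). That call was lost without any 1 of the 6 wild-type samples and without 3 of the mutant samples (KCl numbered 3, KNO3 numbered 1 or 2), with adjusted p from 0.0522 to 0.155, and also with median centring (0.119), an intensity trend (0.101) or either number block (0.0511 and 0.0515). In the mutant the estimate of beta-VPE was -0.07, and its interaction of 0.42 ± 0.18 was not called (limma adjusted p = 0.9993). The enzymes alpha-VPE, gamma-VPE and delta-VPE had estimates of -0.03, 0.45 and 0.17 in wild type. In the mutant theirs were 0.02, 0.13 and -0.16, and none of these estimates was called.

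The genes whose levels followed those of ATG8F most closely over the 12 samples were AT5G18310 (Pearson r = 0.968), AILP1 (0.959), AT1G19020 (0.940), AT5G59540 (0.939) and AT1G62770 (0.937), out of 6005 other named genes with a mean at or above the array median. By that choice they share its group pattern, with estimates from -0.60 for AT1G19020 to -2.34 for AT5G59540 in wild type. For ATG8D the closest were AT2G19310 (0.886), AT5G41400 (0.871), AT2G35585 (0.869), CXE18 (0.862), of a carboxylesterase family, and AT3G50210 (0.851). Being chosen for their likeness to ATG8D over the same samples, they share its group pattern by that choice; the changes of AT2G35585, for example, were -0.66 in the mutant and -0.22 in wild type. ATG8D and ATG8F had an r of 0.678 with each other, which put ATG8F in place 213 for ATG8D and ATG8D in place 744 for ATG8F. These values are descriptions, and over 12 samples they include the difference between the 6 KCl and the 6 KNO3 samples.

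With the group means removed, the closest genes were others, except for AT1G19020. For ATG8F they were CCT1 (r = 0.978), AT1G19020 (0.958), AT2G24860 (0.956), AT3G06950 (0.947) and AT3G10970 (0.947). For ATG8D they were AT5G35100 (0.950), SRX (0.944), AT1G56230 (0.919), AT5G09670 (0.896) and AT1G18720 (0.891). The levels of AT1G56230 moved against ATG8D between salts, with changes of 1.05 in wild type and 1.38 in the mutant. These r values too are descriptions, the highest among 6005 genes for each member. For ATG8F the sample numbered 1 was the highest and the sample numbered 3 the lowest in all 4 groups. The part of the sample numbers in these r values was not tested.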

How the data were processed

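The authors deposited 1 table of log2 signals per probe set and sample, made from biotin-labelled cRNA (Affymetrix 3'IVT kit, per the labels); how background was corrected and arrays were normalized and summarised is not given in the sources used here. That the base is 2 was checked with the hybridisation controls, whose slope on log2 nominal concentration was 1.00. Of 22810 probe sets, 64 controls were left out. A table of the platform's annotation named 1 gene for 13513 probe sets, and 13436 of these were found in RefSeq (TAIR10.1), which gave symbols and loci; a gene is represented by its brightest probe set. The model, with a mean for each group and no intensity trend, used all 12 samples (limma 3.58.1, R 4.3.3). Moderated two-sided tests were adjusted by Benjamini-Hochberg over 22746 probe sets at 0.05. The number of arrays limits the precision: the median standard error was 0.164 for 2 groups and 0.232 for the interaction. The fit was tested on simulated data.

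Members, gene lists and tests were chosen with earlier results of these data known. The lists, from general knowledge, covered the ATG8 family, ATG8 processing and conjugation, the ATG1 and phosphatidylinositol 3-kinase complexes, membrane supply, receptors, TOR and SnRK1 regulators, starvation-induced genes, vacuolar proteases, TGA factors, and root and leaf markers; every measured member could be named. Loci without a symbol in RefSeq are given by locus. The closest genes are the 5 with the highest Pearson r. Whether numbers pair samples was checked from deviations over the brighter probe sets: wild-type and mutant samples of 1 number and salt had correlations from 0.276 to 0.726, so the numbers pair genotypes; across salts within a genotype they ran from -0.14 to 0.23. Alternatives were each sample left out, number blocks, 2 scalings, brighter probe sets only, an intensity trend, array weights, and a fit to the groups compared. Neither gene had a second probe set, so that alternative was not run.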

Additional observations from a re-analysis of the deposited data

How the results depend on the processing

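The changes of ATG8D and ATG8F with nitrate stayed below 0 under every alternative run. With 1 sample left out, the change of ATG8F ran from -0.96 to -0.58 in wild type and from -0.84 to -0.62 in the mutant, and that of ATG8D from -0.30 to -0.01 and from -0.73 to -0.49. The differences between genotypes of ATG8D ran from 0.09 to 0.38 under KCl and from -0.34 to -0.10 under KNO3, and its interaction from -0.60 to -0.31.

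Estimates of ATG8F that lay near 0 changed sign. With 1 sample left out, the genotype difference of ATG8F ran from -0.14 to 0.24 under KCl and from -0.0531 to 0.22 under KNO3, and its interaction from -0.12 to 0.26. Under KCl the difference was -0.0288 without wild type KCl replicate 2, -0.14 without wild type KCl replicate 3, -0.0568 without tga1 tga4 KCl replicate 1 and -0.0366 without tga1 tga4 KCl replicate 2. Under KNO3 it was -0.0531 without wild type KNO3 replicate 3. The interaction was -0.12 without wild type KCl replicate 1, -0.0751 without wild type KNO3 replicate 3, -0.0434 without tga1 tga4 KCl replicate 3 and -0.10 with array weights. Without the 4 samples numbered 3 these values were -0.0048, -0.0082 and -0.0034. In none of these fits was ATG8D or ATG8F called between genotypes or for the interaction.

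Counts of called probe sets moved more. Without the 4 samples numbered 3 the wild-type nitrate count of 1253 became 829. The mutant count of 1165 became 1822 with array weights. Leaving out 1 sample gave 815 to 1326 (the lowest without wild type KNO3 replicate 1) and 720 to 1221 (the lowest without tga1 tga4 KNO3 replicate 1). The count of 4 between genotypes under KCl was 2 in a fit to these groups alone, 18 with the replicate block within each salt and 1 without the samples numbered 3, and 2 to 18 with 1 sample left out. Under KNO3 the count of 3 ran from 3 to 4. The interaction count of 1 was 2 with each of the 3 replicate blocks, with median centring and with array weights, 0 without the samples numbered 3, and 0 to 2 with 1 sample left out. The cause of these shifts was not tested. Where samples were left out, the fit also rested on fewer samples. The number block lowered the standard error of the ATG8F response from 0.21 to 0.14 and called ATG8F in both genotypes (limma adjusted p = 0.00504 in wild type and 0.0107 in the mutant). Its numbers pair the genotypes, while across salts within a genotype samples of 1 number had correlations from -0.14 to 0.23. ATG8F was also called in the mutant with median centring (0.0367), with array weights (0.0161) and without wild type KCl replicate 1 (0.037), which is not in that contrast but enters the shared estimate of the spread. As ATG8F was chosen for its response to nitrate, these adjusted p-values show how the call depends on the fit and are no test.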
